A study of Mus musculus with 12 samples.

Results

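The estrogen, progesterone and prolactin receptors were examined in sensory neurons of the trigeminal ganglion (TG) that innervate the tongue, in male and female mice with and without a tongue tumor. They are encoded by 4 of the 22609 gene symbols in the count files, chosen by name but with earlier results of these data known. The genes are Esr1 (estrogen receptor alpha), Esr2 (estrogen receptor beta), Pgr (progesterone receptor) and Prlr (prolactin receptor). The 12 libraries fall into 4 groups of 3, which are normal males (MN), males with tumor (MT), normal females (FN) and females with tumor (FT). All were young adult Balb/c athymic nude mice, which lack T cells, and all received WGA-AF488 in the tongue on day 13, a wheat germ agglutinin dye that nerve endings carry back to the cell body. MT and FT mice were inoculated in the tongue with 350000 HSC3 cells, which derive from a human squamous carcinoma of the mouth. The labels say that MN and FN mice were given no cells, whereas the study's methods describe an injection of normal oral keratinocytes in the controls, and this was not settled. On day 15 the ganglia were dissociated and the cells with bright dye were sorted. Each normal library pooled 4 ganglia of 2 mice, while each tumor library pooled 4 ganglia, from the injected side only, of 4 mice, so the pools of the conditions also differ in the number of animals. No source states outright that the pools of a group were prepared independently, and p values measure the spread between these pools.

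Estrogen and progesterone receptors are nuclear receptors, which bind their hormone inside the cell, pair up and act on DNA through a domain of zinc fingers. Pgr is itself a classical target of estrogen receptor alpha in reproductive tissues. The prolactin receptor is a cytokine receptor of the cell surface that signals through the kinase JAK2 and the factor STAT5, and in sensory neurons prolactin is known to sensitize channels that respond to painful stimuli, with differences between the sexes.

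On mm9, with the GENCODE mouse release M1 annotation, Esr1 lies on the minus strand of chromosome 10 from 5340927 to 5734948, and Esr2 on the minus strand of chromosome 12 from 77221406 to 77278246. Pgr lies on the plus strand of chromosome 9 from 8900419 to 8965425, and Prlr on the plus strand of chromosome 15 from 10106993 to 10303504. The coding bases of the first zinc finger are shown because the DNA-binding domain is the best conserved part of nuclear receptors, which bears on whether short reads could be credited to the wrong receptor. All 3 are exonic coding sequence, in exon 3 of 9 for Esr1 (chr10:5599756-5599824, minus strand), exon 3 of 10 for Esr2 (chr12:77266458-77266526, minus strand) and exon 2 of 8 for Pgr (chr9:8903657-8903725, plus strand). Each is written from 5′ to 3′ on the strand of the gene, and capitals mark the last 6 codons, which hold the P-box, the part that reads the bases of the response element.
Esr1: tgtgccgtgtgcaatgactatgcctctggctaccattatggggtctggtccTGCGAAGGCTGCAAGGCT
Esr2: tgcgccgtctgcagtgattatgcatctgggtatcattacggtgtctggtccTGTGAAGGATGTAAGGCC
Pgr: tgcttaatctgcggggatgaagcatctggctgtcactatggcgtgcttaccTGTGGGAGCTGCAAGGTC
Over these 69 bases Esr1 and Esr2 were identical at 56 positions (81.2%), Esr1 and Pgr at 41 (59.4%) and Esr2 and Pgr at 45 (65.2%). Over whole protein-coding transcripts, the longest run shared by any 2 of the 4 receptors was 12 to 17 bases. No stretch of 50 bases was shared between any of them, nor with the related genes Ghr, Esrra, Esrrb, Esrrg, Nr3c1 and Nr3c2. For Prlr, 155 of its 15494 exon bases are also annotated to Agxt2 on the same strand, and Agxt2 had 0 reads in all 12 libraries.

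Each library held between 4592891 and 8922011 reads on genes. Levels are given as CPM, a gene's reads scaled to a fixed total of the reads on genes, and 1 read is worth between 0.112 and 0.218 CPM. FN replicate 2, FT replicate 2 and FT replicate 3 stood apart. In these libraries 56.0%, 68.4% and 52.6% of all reads mapped to several places, against 43.0% to 45.5% in the other 9, and their highest Spearman rho with any of the 9 was 0.916, 0.891 and 0.950, while no pair among the 9 was under 0.977. All 3 are female, so results are given over 12 libraries and without them. The 9 sensory neuron markers were all read in every library, with a summed level of 13623 to 16150 CPM in the 9 libraries and 8274 to 18020 CPM in the 3 that stand apart.

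All 4 receptor genes were at low levels. Levels of different genes are compared as RPKM, which divides the CPM by the joint length of its exons in kilobases. The mean over 12 libraries was 1.37 ± 0.618 RPKM (SD, n = 12) for Pgr, 0.283 ± 0.176 RPKM for Esr1, 0.197 ± 0.0723 RPKM for Prlr and 0.167 ± 0.132 RPKM for Esr2. Pgr had the highest RPKM of the 4 in each of the 12 libraries, whereas the means of Esr1 and Prlr, and of Prlr and Esr2, differed by less than the SD of the higher of each pair. Among all annotated symbols of its own library, Pgr stood between the 39.1 and the 60.8 percentile, and Esr1 (29.5 to 42.4), Prlr (32.1 to 39.7) and Esr2 (28.0 to 42.4) lower. This scale does not start at 0, because many symbols had no reads. With 0 counts, Esr2 stood at 28.6 in MN replicate 1, 31.5 in FN replicate 2 and 28.0 in FT replicate 3. These lengths join the exons of all annotated transcripts, 13678 bases for Esr1 and 15494 for Prlr against 4776 for Pgr and 3369 for Esr2, so a cell that uses a shorter transcript has a higher level than the RPKM gives. Because each library is a bulk sample, fewer cells that express a receptor and less RNA per cell cannot be told apart.

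Esr1, the receptor that mediates most effects of estradiol in the reproductive tract, was read in every library with 1 to 57 counts. In replicates 1, 2 and 3 its level was 3.37, 5.49 and 6.54 CPM for MN, and 7.04, 5.14 and 2.72 CPM for MT. In FN it was 2.89, 0.13 and 4.25 CPM, and in FT 6.86, 1.31 and 0.70 CPM. The 3 lowest values were those of the libraries that stand apart, with 1, 6 and 5 counts, and the other 3 female libraries lay between 2.89 and 6.86 CPM, within the male range of 2.72 to 7.04 CPM. The counting error alone is wide at such counts, for example 1.83 to 4.34 CPM for the 23 counts of FN replicate 1 (exact 95% Poisson interval, which covers counting error only).

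Esr2, the second estrogen receptor, was close to the limit of detection, which was set at 3 counts in a library. It was 0, 0.22 and 0.92 CPM in MN, 0.38, 0.70 and 1.11 CPM in MT, 0.63, 0 and 0.82 CPM in FN, and 0.69, 1.31 and 0 CPM in FT, for replicates 1, 2 and 3 in that order. It held 3 counts or fewer in 5 of the 12 libraries and 9 at most. The groups overlapped, and the 3 libraries at 0 were MN replicate 1, FN replicate 2 and FT replicate 3, where 3 counts stand for 0.422, 0.391 and 0.418 CPM. Esr2 did not pass the filter on low counts, so its comparison rests on the sexes, and without the filter its edgeR log2 fold changes had standard errors of 0.86 to 1.69, with 0.88 in MT against MN and 0.55 in FT against FN. The mean was 0.574 ± 0.504 CPM (SD, n = 6) in females and 0.554 ± 0.427 CPM (SD, n = 6) in males, a difference of 0.0195 CPM (two-sided exact permutation test over 924 splits, p = 0.952). Without the 3 libraries that stand apart the female mean was 0.712 CPM and the difference 0.158 CPM (two-sided exact permutation test, p = 0.548, n = 3 and 6). A sex difference of Esr2 was therefore not detectable at this depth.

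Pgr, the nuclear receptor of progesterone, was the best covered, with 9 to 80 counts. It was 7.17, 8.97 and 9.18 CPM in MN, 9.06, 5.70 and 5.56 CPM in MT, 3.65, 1.17 and 4.93 CPM in FN, and 4.94, 12.2 and 6.14 CPM in FT. All 3 FN libraries lay below all 3 MN libraries. The lowest and the highest value of the 12 were both in libraries that stand apart, 1.17 CPM in FN replicate 2 and 12.2 CPM in FT replicate 2. The other 3 female libraries, at 3.65 to 4.94 CPM, lay below each of the 6 male libraries, at 5.56 to 9.18 CPM.

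Prlr, whose ligand prolactin is a pituitary hormone, had 6 to 43 counts. It was 3.66, 3.03 and 4.94 CPM in MN, 4.03, 3.20 and 4.08 CPM in MT, 2.39, 0.78 and 2.60 CPM in FN, and 2.20, 3.70 and 2.09 CPM in FT. The FN libraries again lay below the MN libraries without overlap. Outside the libraries that stand apart the female values were 2.20 to 2.60 CPM and the male values 3.03 to 4.94 CPM, while FT replicate 2 lay inside the male range. For 286 of 13360 genes (2.14%), the 3 other female libraries were all below the 6 male ones, as they were for Pgr and Prlr but not for Esr1.

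**Figure D1:**
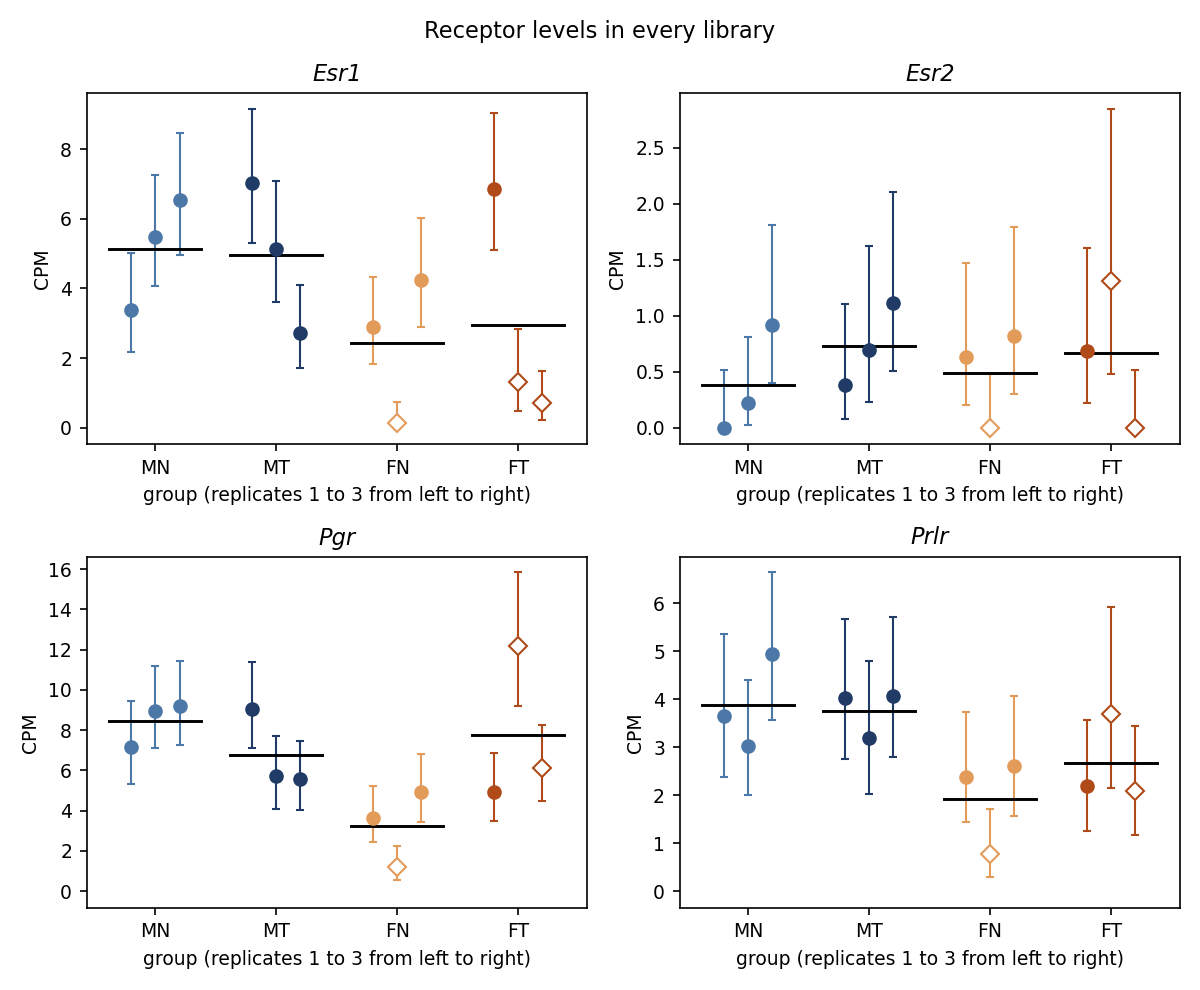
Level of each receptor gene in CPM (vertical axis, linear, a separate scale in each panel) in the 12 libraries by group, with exact 95% Poisson intervals as bars and the group mean as a black line. Open diamonds are the 3 libraries that stand apart. In FN the 3 libraries of Pgr (1.17 to 4.93 CPM) and of Prlr (0.78 to 2.60 CPM) sit below those of MN, and Esr1 is lowest in the open diamonds.

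Group differences were assessed by the quasi-likelihood test of edgeR in a fit of all 12 libraries, adjusted by the Benjamini-Hochberg method over all genes tested, 13835 in comparisons within a sex and 13360 between the sexes, where the X and Y chromosomes were not used. An adjusted p under 0.05 was reached by 0% of the genes in each of the 6 comparisons and by none of the receptors. The counts at an unadjusted p under 0.05 are given beside each comparison. The comparisons share libraries, so their values are set side by side and not counted as separate evidence.

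The comparison of FN with MN asks how tongue-innervating neurons differ between the sexes without a tumor. The mean level of Pgr was 3.25 ± 1.91 CPM (SD, n = 3) in FN and 8.44 ± 1.10 CPM (SD, n = 3) in MN. The fitted log2 fold change was -1.34 (SE, the standard error, 0.54, 95% interval -2.49 to -0.19), a level 0.394-fold that of males, with an unadjusted p of 0.0251 and an adjusted p of 0.81 from edgeR. Under an unadjusted p of 0.05 stood 744 of 13360 genes (5.57%), of which 48 (0.359%) were lower in FN, Pgr among them. Prlr had 1.93 ± 0.995 CPM in FN and 3.87 ± 0.972 CPM in MN, and the log2 fold change was -0.96 (SE 0.52, interval -2.07 to 0.15, edgeR adjusted p = 0.81). Esr1 had 2.42 ± 2.10 CPM in FN and 5.14 ± 1.61 CPM in MN, and the interval of its log2 fold change of -1.09 ran from -2.86 to 0.69 (edgeR adjusted p = 0.813). The replicates did not overlap for 2 of the 3 receptors, where 10.2% of all genes had each FN library below each MN library. Without the 3 libraries that stand apart the log2 fold change of Pgr was -1.03 (SE 0.32, edgeR unadjusted p = 0.0073, adjusted p = 0.164), at a threshold passed by 6.57% of genes in this direction, and those of Prlr and Esr1 were -0.68 and -0.59. Limma-voom with sample quality weights gave Pgr -1.09 with an adjusted p of 0.0181, the only setting in which a receptor passed 0.05, and one in which 800 genes did.

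In tumor-bearing mice, FT against MT, the order was not the same for every receptor and depended on the libraries that stand apart. Pgr was at 7.76 ± 3.89 CPM in FT and 6.77 ± 1.98 CPM in MT, a log2 fold change of 0.41 (SE 0.53, edgeR adjusted p = 0.722), and without these libraries at -0.52 (SE 0.41, adjusted p = 0.786), with FT replicate 1 alone standing for FT. Prlr was at 2.66 ± 0.901 CPM in FT and 3.77 ± 0.494 CPM in MT, a log2 fold change of -0.32 over 12 libraries and -0.84 over 9. Esr1 was at 2.95 ± 3.40 CPM in FT and 4.97 ± 2.17 CPM in MT, and its log2 fold change turned from -0.68 to 0.39 without the 3 libraries. Over the 12 libraries no receptor was under an unadjusted p of 0.05 with edgeR, a threshold that 12.1% of genes passed. FT replicate 1 held the only FT value of Esr1 above 1.31 CPM, and without it the log2 fold change of Esr1 was -2.08 (SE 0.94, edgeR unadjusted p = 0.0426, adjusted p = 0.158).

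Averaged over normal and tumor mice, the log2 difference of females minus males was -0.64 (SE 0.37) for Prlr, -0.47 (SE 0.37) for Pgr and -0.88 (SE 0.58) for Esr1. The edgeR adjusted p values were 0.324, 0.455 and 0.376, and none of the 3 was under an unadjusted p of 0.05, where 19% of all genes were. Over the 9 libraries the log2 difference was -0.78 (SE 0.26, interval -1.35 to -0.21) for Pgr and -0.76 (SE 0.30, interval -1.41 to -0.11) for Prlr, with unadjusted p values of 0.0115 and 0.0256 and adjusted p values of 0.173 and 0.242 from edgeR. In that fit 8.56% of genes were lower in females at an unadjusted p under 0.05. Esr1 differed by -0.10 (interval -0.85 to 0.65) over the 9, where FT replicate 1, at 6.86 CPM, alone stood for FT. Over the same 9 libraries its log2 fold change in FN against MN was -0.59. With all libraries but FT replicate 1, the averaged difference of Esr1 was -1.59 (SE 0.59, edgeR unadjusted p = 0.0176, adjusted p = 0.0891).

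Markers of some other cells moved with sex in the same libraries. The summed level of the 6 satellite glia markers was 3510 to 4924 CPM in the 6 male libraries, 8083 to 16403 CPM in FN and 6515 to 17853 CPM in FT. The 8 macrophage markers summed to 17.0 to 216 CPM in males and 133 to 436 CPM in females, and the 8 markers of fibroblasts and meninges to 82.5 to 175 CPM in males and 168 to 412 CPM in females. Among the males, MT replicate 3 held the 216 CPM of macrophage markers, and the others lay at 17.0 to 34.5 CPM. The sexes overlapped in each of the other lists. Markers of myelinating Schwann cells summed to 1499 to 2276 CPM in males and 1163 to 3523 CPM in females. Those of endothelial cells were at 251 to 755 CPM and 135 to 873 CPM in the same order. Pericyte and smooth muscle markers were at 87.9 to 203 CPM and 97.8 to 241 CPM. Neutrophil markers were at 0.56 to 27.8 CPM and 15.1 to 186 CPM, where only FN replicate 3 lay below the highest male library. Each marker of every list had reads in at least 1 library of each group. The neuron list was 14867 to 15798 CPM in MN and 13623 to 14841 CPM in FN, also without overlap but closer together than the values of Pgr or Prlr. The part that other cells have in the sex differences of the receptors was not tested.

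**Figure D2:**
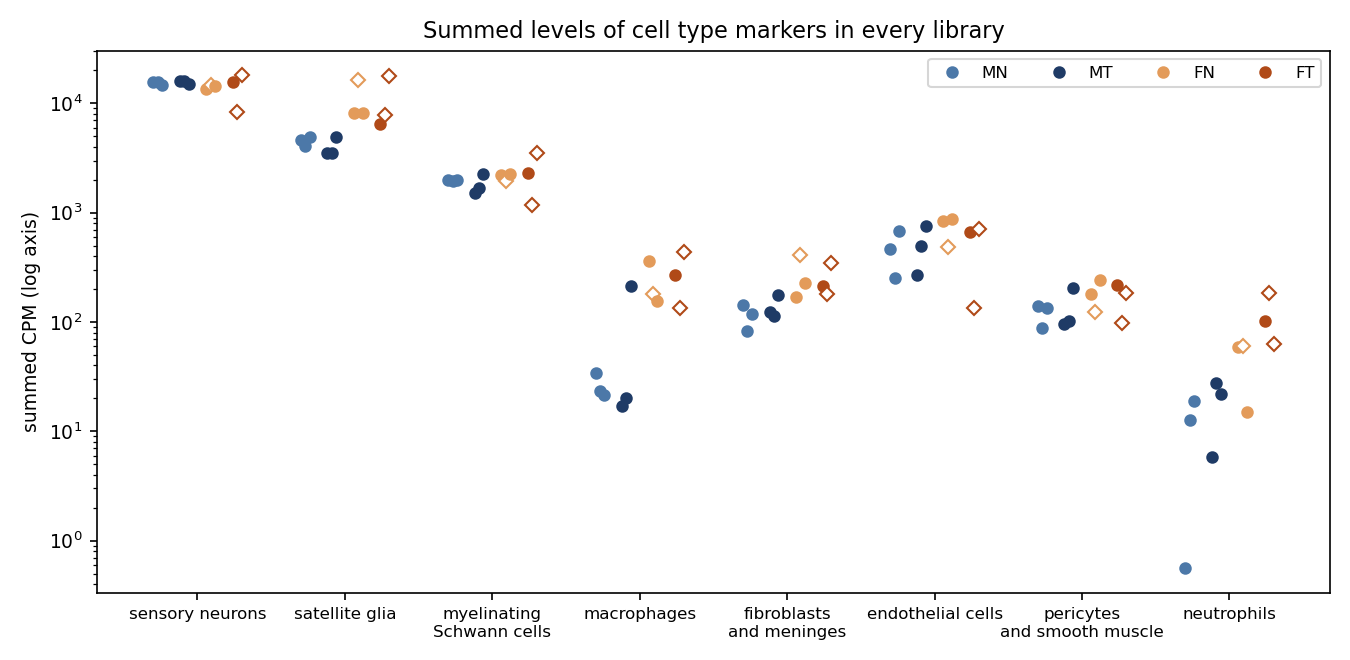
Summed CPM (log axis) of the markers of 8 cell types in each of the 12 libraries, colored by group, with open diamonds for the 3 libraries that stand apart. Satellite glia markers lie at 3510 to 4924 CPM in males and at 6515 CPM or more in females, while sensory neuron markers lie between 13623 and 16150 CPM in the other 9 libraries of both sexes.

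In males the estimates of the tumor effect were near 0. In MT against MN the log2 fold change was -0.02 (interval -1.74 to 1.70) for Esr1, -0.02 (interval -1.09 to 1.06) for Prlr and -0.29 (interval -1.41 to 0.82) for Pgr, each with an edgeR adjusted p of 1, and 0.426% of all genes were under an unadjusted p of 0.05. The replicates of MT and MN overlapped for all 4 receptors. These intervals take their spread from all 12 libraries. With the spread of the 9 libraries, which hold the same 6 male libraries, they were -0.86 to 0.80 for Esr1, -0.68 to 0.64 for Prlr and -0.88 to 0.29 for Pgr, and in a fit of MN and MT alone -0.90 to 0.84, -0.70 to 0.66 and -0.90 to 0.30. Changes of a size within these intervals were not excluded.

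In females, the log2 fold change of Pgr in FT against FN was 1.46 (SE 0.54, interval 0.30 to 2.63), with an unadjusted p of 0.0174 and an adjusted p of 0.994 from edgeR. Of all genes 3.82% were under an unadjusted p of 0.05. The lowest FT library, at 4.938 CPM, was only just above the highest FN library, at 4.931 CPM, and 1.22% of genes had every FT library above every FN library. Without the libraries that stand apart the log2 fold change of Pgr was 0.21 (SE 0.44, adjusted p = 0.997), from 1 FT library against 2 FN libraries. The values were 0.62 (SE 0.53) for Prlr and 0.39 (SE 0.84) for Esr1, with an edgeR adjusted p of 0.994 for both. Over the 9 libraries Prlr was at -0.18 and Esr1 at 0.95.

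The tumor effect was then compared between the sexes within the fit. The difference, the female effect minus the male effect on the log2 scale, was 1.75 (SE 0.75, interval 0.15 to 3.36) for Pgr, with an unadjusted p of 0.0344 and an adjusted p of 1 from edgeR. Of all genes 1.47% had an unadjusted p below 0.05. For Prlr it was 0.64 (interval -0.92 to 2.20) and for Esr1 0.41 (interval -2.08 to 2.89). Over the 9 libraries the Pgr difference was 0.51 (interval -0.61 to 1.63, edgeR adjusted p = 0.963).

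**Figure D3:**
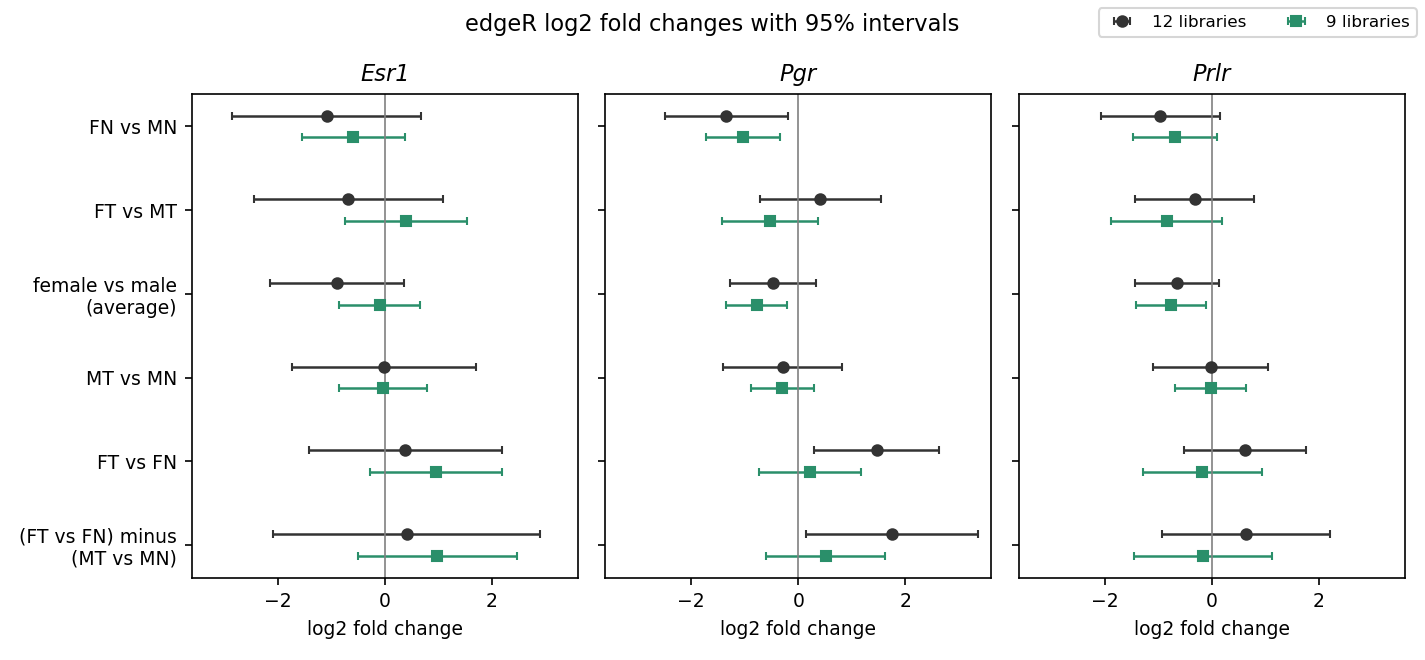
Log2 fold changes (horizontal axis) of Esr1, Pgr and Prlr in the 6 comparisons, from edgeR fits of 12 libraries (black circles) and of the 9 libraries without those that stand apart (green squares), with 95% intervals. For Pgr in FN against MN both intervals lie below 0, at -1.34 and -1.03, and the tumor effect in females moves from 1.46 to 0.21 without the 3 libraries.

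Across the 12 libraries Pgr and Prlr varied together, with a Pearson r of 0.875 between their log2 CPM (prior count 2), and 0.725 over the 9 libraries. Esr1 had an r of 0.58 with Pgr and 0.709 with Prlr, and 0.556 and 0.094 over the 9. These values are descriptions over libraries that share groups, depth and the libraries that stand apart. Among 9542 genes with a mean of 10 CPM or more, those whose pattern was most like Pgr were Ibtk (r = 0.937, and 0.746 over the 9 libraries), Dzip3 (0.934 and 0.771) and Efna5 (0.909 and 0.925). For Prlr they were Nudt11 (0.945 and 0.869), Ibtk (0.928 and 0.832) and Pomt1 (0.909 and 0.696), so Ibtk stood in both lists. For Esr1, Armc5 (0.972 and 0.827) and Grsf1 (0.967 and 0.937) were among the most alike. Ibtk, like Pgr, was lowest in FN replicate 2 (1.17 CPM) and highest in FT replicate 2 (18.3 CPM), and Grsf1, like Esr1, was lower in the 3 libraries that stand apart (45.8 to 82.7 CPM) than in the other 9 (167 to 199 CPM).

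The FN libraries lay below the MN libraries for both Pgr and Prlr, though with an edgeR adjusted p of 0.81 for each. The promoters of the receptors were searched for 4 short motifs on both strands. A promoter is here a RefSeq window on GRCm38.p6, from 250 bases before to 50 after an annotated start, and these coordinates are not those of mm9. The 4 receptors have 7 such windows. The window of Pgr, which held none of the motifs, and the window of Prlr that held 2 are shown from 5′ to 3′ on the plus strand, with matches in capitals.
Pgr, chr9:8899583-8899882, plus strand: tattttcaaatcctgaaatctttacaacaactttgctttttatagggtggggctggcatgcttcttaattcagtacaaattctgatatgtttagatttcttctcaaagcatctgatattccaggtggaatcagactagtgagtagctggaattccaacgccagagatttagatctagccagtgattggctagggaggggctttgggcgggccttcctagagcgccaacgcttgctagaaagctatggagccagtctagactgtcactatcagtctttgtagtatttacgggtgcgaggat
Prlr, chr15:10223656-10223955, plus strand: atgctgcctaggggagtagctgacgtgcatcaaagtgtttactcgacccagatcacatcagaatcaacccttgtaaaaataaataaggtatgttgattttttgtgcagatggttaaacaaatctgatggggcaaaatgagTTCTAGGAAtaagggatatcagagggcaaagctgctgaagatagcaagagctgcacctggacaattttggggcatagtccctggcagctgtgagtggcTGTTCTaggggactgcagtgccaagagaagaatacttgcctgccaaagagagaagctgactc
The Prlr window held the progesterone receptor half-site AGAACA on the minus strand. It reads TGTTCT on the plus strand, with the leftmost base at -12 from the start. The window also held the STAT5 site TTCNNNGAA on the plus strand, its first base at -110. A STAT5 site was also found in 1 of the Esr1 windows, at -188. Of all 32851 promoters, 18.97% held the half-site AGAACA and 8.3% the STAT5 site. These shares are per window, and 7 windows were searched here. The estrogen receptor half-site AGGTCA, in 16.26% of all promoters, and the full estrogen response element, GGTCA and TGACC with 3 bases between them, in 0.07%, were in none of the 7. The half-site is contained in the forms of the full element that have an A before it. A match is a description of letters and not a binding site.

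The wider steroid and prolactin pathways were described with 6 lists of 85 genes, of which 83 were in the files and 63 had enough reads for the test. Of the 83, 59 had a mean RPKM above that of Pgr and 65 above that of Esr1. In MT against MN no gene of any list was under an unadjusted p of 0.05 with edgeR over the 12 libraries. With the spread of the 9 libraries 7 were, where 7.25% of all genes were, and none had an adjusted p under 0.05. Among them were Socs3 (0.73, SE 0.18, edgeR adjusted p = 0.294), Shc1 (-0.36, SE 0.11, edgeR adjusted p = 0.449) and Jak1 (-0.26, SE 0.099, edgeR adjusted p = 0.642) of prolactin signaling. The remaining counts are those of females against males averaged over normal and tumor. There the median log2 fold change of all genes tested was 0.09, and 15.1% of genes were higher and 3.87% lower in females at an unadjusted p under 0.05, against which the counts of the lists are to be read. None had an adjusted p under 0.05.

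**Figure D4:**
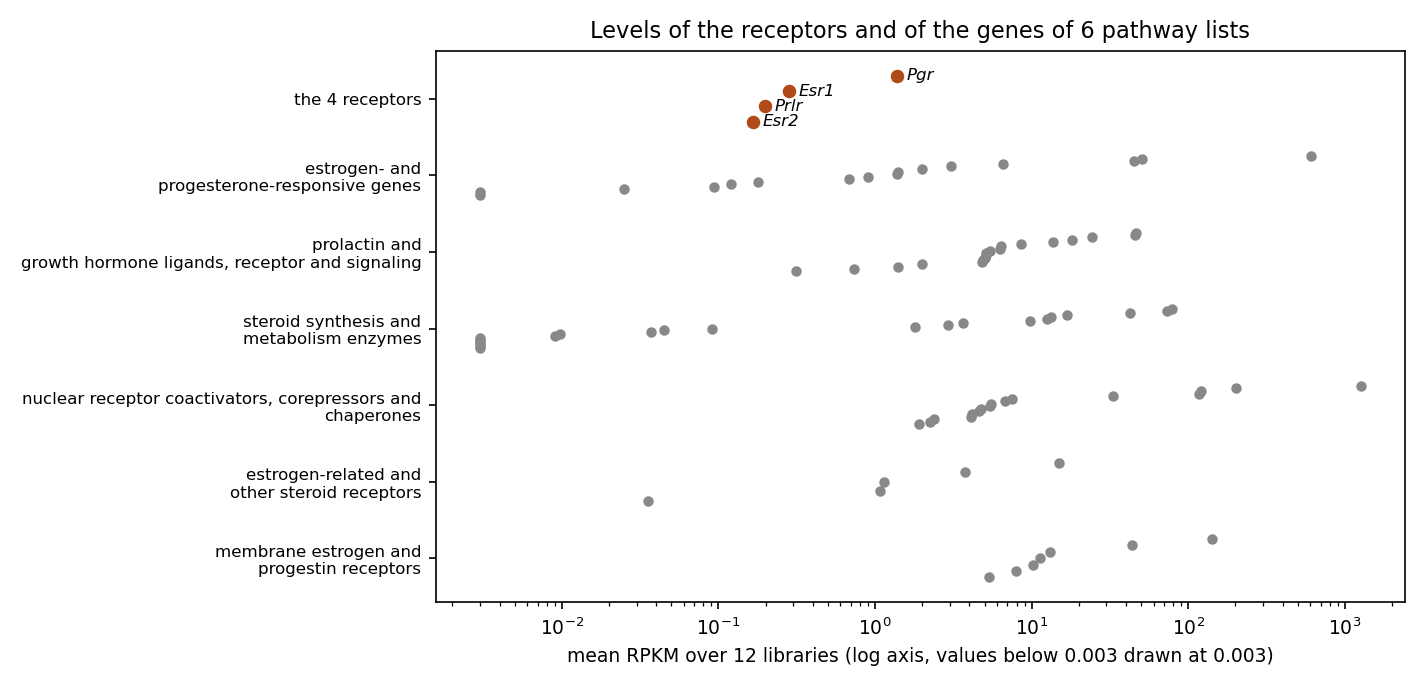
Mean RPKM over 12 libraries (log axis) of the 4 receptor genes (orange) and of the genes of 6 pathway lists (gray), each point a gene, with values below 0.003 drawn at 0.003. Pgr lies at 1.37 RPKM and the other receptors at 0.167 to 0.283 RPKM, and 59 of 83 pathway genes lie above Pgr.

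Membrane receptors and binding proteins of progesterone were read at higher levels than the nuclear receptors. Gper1, the membrane estrogen receptor of the list, was not found among the gene symbols, so none for estrogen was measured. Of the 7 in the files, Pgrmc1, a membrane-associated progesterone-binding protein, had a mean of 238 to 291 CPM in the 4 groups, Paqr5, a membrane progestin receptor, 114 to 281 CPM, and Paqr7, of the same family, 49.5 to 61.2 CPM. Of 6 tested between the sexes, 2 were higher and 1 lower in females at an unadjusted p under 0.05 (median log2 fold change 0.39). Those higher were Pgrmc2 (1.24, SE 0.47) and Paqr5 (1.10, SE 0.42), and the lower was Paqr8 (-0.60, SE 0.26). Paqr5 and Pgrmc2 were highest in FT replicate 2, with 594 CPM of Paqr5 against 93.5 to 198 CPM in the other 11 and 105 CPM of Pgrmc2 against 12.6 to 30.4 CPM. FN replicate 2 came next for both, at 198 CPM of Paqr5 and 30.4 CPM of Pgrmc2. The lowest values of Paqr8, 9.48 to 18.1 CPM, were those of the 3 libraries that stand apart. Over the 9 libraries the differences were 0.20 for Paqr5, 0.05 for Pgrmc2 and -0.26 for Paqr8, with edgeR adjusted p values of 0.51, 0.908 and 0.417.

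Of 4 other nuclear receptors tested, 2 were higher and 1 lower in females at an unadjusted p under 0.05 (median 0.80). Esrra, an orphan receptor related to Esr1 that governs mitochondrial genes, was higher in females by 2.10 (SE 0.66). It stood at 309 CPM in FT replicate 2 and at 7.50 to 24.4 CPM in the other 11 libraries, and the difference over the 9 libraries was 0.03. Esrrg, of the same family, was lower by 1.18 (SE 0.48), and by 0.99 over the 9 libraries (edgeR adjusted p = 0.42). Nr3c1, the glucocorticoid receptor, had a mean of 23.1 and 23.4 CPM in MN and MT and of 33.0 and 31.7 CPM in FN and FT. Its difference of 0.67 (SE 0.31) fell to 0.01 over the 9 libraries, as the highest values were those of FN replicate 2 (44.6 CPM) and FT replicate 2 (45.9 CPM). The 16 coregulators and chaperones, among them Hsp90ab1 (3462 to 4037 CPM in group means), Fkbp4 (489 to 666 CPM) and Stip1 (212 to 313 CPM), which hold steroid receptors in a form able to bind hormone, included none under an unadjusted p of 0.05 (median 0.12). Over the 9 libraries 5 of the 16 were lower in females at that threshold and none higher, where 8.56% of all genes were lower and 8.15% higher, among them Fkbp4 (-0.26, SE 0.095) and Stip1 (-0.21, SE 0.089), with edgeR adjusted p values of 0.214 and 0.278.

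Among the enzymes of steroid synthesis and metabolism, Cyp19a1 (aromatase, which makes estrogens), Hsd3b1 and Hsd3b6 had 0 reads in all 12 libraries, as did Hsd17b2 and Sult1e1, which inactivate estradiol. The limit of 3 counts stands for 0.336 to 0.653 CPM, depending on the library. Hsd17b12, a 17-beta-hydroxysteroid dehydrogenase, was read at 53.6 to 271 CPM. Of 9 enzymes tested, 3 were higher in females at an unadjusted p under 0.05 and none was lower (median 0.08). These were Hsd17b11 (2.34, SE 0.58), a 17-beta-hydroxysteroid dehydrogenase, Tspo (1.41, SE 0.36), a protein of the outer mitochondrial membrane, and Fdx1 (0.98, SE 0.33), which passes electrons to steroidogenic enzymes. Their adjusted p values from edgeR were 0.157, 0.159 and 0.192. Over the 9 libraries Hsd17b11 was at 0.70 and Tspo at 0.55, and Fdx1 at 0.26. These genes are not particular to neurons, and glia and macrophage markers were higher in the same female libraries, with a part that was not tested.

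Of 16 genes of prolactin and growth hormone signaling that were tested, 3 were higher and 1 lower in females at an unadjusted p under 0.05 (median 0.12). Those higher were Fyn (1.03, SE 0.38), a kinase of the Src family, Ptpn6 (1.57, SE 0.62), a phosphatase of blood cells, and Socs2 (0.65, SE 0.27), a feedback inhibitor of cytokine receptors. The lower was Shc1 (-1.002, SE 0.44), an adaptor protein. Over the 9 libraries the differences were 0.18 for Fyn, 1.92 for Ptpn6, 0.16 for Socs2 and -0.29 for Shc1, with edgeR adjusted p values of 0.622, 0.144, 0.525 and 0.197. The kinase Jak1 had a mean of 310 to 379 CPM in the 4 groups and Socs3 101 to 165 CPM, against 1.93 to 3.87 CPM for Prlr. Jak2, the kinase through which the prolactin receptor signals, was lower than Jak1, at 6.69 to 12.97 CPM in the 12 libraries. Stat5b, which encodes a form of STAT5, was at 6.785 to 43.49 CPM, and at 28.76 to 43.49 CPM over the 9 libraries. The mean RPKM over 12 libraries was 2.001 for Jak2 and 5.414 for Stat5b.

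Among 10 tested genes known to respond to estrogen or progesterone in other tissues, 2 were higher in females and none lower at an unadjusted p under 0.05 (median 0.15). Igfbp4, a binding protein of insulin-like growth factors, was 87.7, 69.0 and 109 CPM in MN, 82.9, 94.8 and 95.1 CPM in MT, 146, 112 and 164 CPM in FN, and 162, 103 and 207 CPM in FT. Only FT replicate 2, at 103 CPM, was below the highest male library. The log2 difference was 0.84 (SE 0.22, edgeR adjusted p = 0.173) over 12 libraries. It was 0.76 (SE 0.12) over the 9, with an edgeR adjusted p of 0.0239, where 112 genes (0.81%) had an adjusted p under 0.05. Ccnd1 (cyclin D1) was higher by 0.59 (SE 0.24), with 36.1 and 45.0 CPM in FT replicates 2 and 3 and 17.1 to 24.9 CPM in the other 10 libraries, and by 0.14 over the 9 (edgeR adjusted p = 0.626). Ctsd had a mean of 1382 to 1659 CPM and Xbp1 of 137 to 156 CPM in the groups, and Tff1 and Hand2 had 0 reads in all libraries. Ltf, encoding lactotransferrin, which neutrophils also make, had an edgeR unadjusted p of 0.0409 and adjusted p of 0.994 in FT against FN. It was 9.05, 0.44 and 3.07 CPM in FT and 0.75, 0 and 1.37 CPM in FN, with means of 4.19 and 0.71 CPM. Neutrophil markers summed to 63.2 to 186 CPM in FT and 15.1 to 59.8 CPM in FN. The highest sum was that of FT replicate 2, where Ltf was at 0.44 CPM. The part of neutrophils in the Ltf value was not tested.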

How the data were processed

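RNA of WGA-positive neurons sorted from TGs was measured in 12 libraries, 3 in each of MN, MT, FN and FT, grouped by their labels. According to the labels and methods, the authors made SMART-seq2 libraries, processed reads with CASAVA 1.8.2, TopHat2 and SAMtools, aligned them to mm9 and deposited HTSeq read counts, whole numbers without normalization. Aligner versions, gene annotation and counting strand are not given in the sources used here. Between 76.3% and 88.8% of reads per library were not assigned to a gene and were dropped. These include the reads that mapped to several places, which were 43.0% to 68.4% of all reads. Reads on genes numbered 4592891 to 8922011 per library, and intervals cover counting error only, since molecules were not tagged.

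CPM used reads on genes, and RPKM the exon lengths of GENCODE M1, which matched 21627 of 22609 symbols. Counts were tested with edgeR 4.0.16 (R 4.3.3), TMM normalization, filterByExpr (minimum count 10, minimum total 15), quasi-likelihood F-tests over 4 group means and Benjamini-Hochberg adjustment. Esr2, which failed the filter, was tested by exact permutation of 6 female against 6 male libraries. The alternatives were DESeq2 1.42.0, its size factors, limma-voom (limma 3.58.1) with sample quality weights, no filter, only the groups compared, a replicate block, TMM-scaled CPM, leaving out each library, and sets of 10 and 9 libraries. The test was tested on simulated data. Same-numbered libraries were not treated as pairs in the main fit. Their deviations from the group means had a correlation of -0.352 to 0.571, over 0.1 in 5 of 18 pairs. These values cannot show whether same-numbered pools were handled together.

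The receptors, lists and alternatives were chosen with earlier results of these data known. Beside the receptors, the genes named are, from each list, the 3 with the highest mean RPKM and up to 3 with the smallest unadjusted p under 0.05, and the 3 genes most correlated with each receptor tested, of which 1 is not reported here. Genes at 0 in every library, Agxt2, Gper1, Jak2, Stat5b and, in the closing section, Gh, Prl and Stat5a were named after their values were seen. Promoter sequences are from RefSeq on GRCm38.p6. Matplotlib, Biopython 1.88, pandas 2.3.3, scipy 1.17.1 and numpy 2.4.6 were run under Python 3.11.15 for all else.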

Additional observations from a re-analysis of the deposited data

How the results depend on the processing

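Esr1, Prlr and Esr2 had at most 57, 43 and 9 counts in a library, and only FT replicate 1 stands for FT over the 9 libraries. Of 354 recalculated values of the receptors, 333 kept their direction and their side of the threshold, 20 changed sign and 1 passed the threshold, the log2 fold change of Pgr in FN against MN with limma-voom (-1.089, adjusted p = 0.0181). Signs turned without the 3 libraries that stand apart for FT against FN (Prlr -0.176), FT against MT (Esr1 0.393, Pgr -0.523) and the difference between the sexes in the tumor effect (Prlr -0.156), and without FN replicate 2 and FT replicate 2 for Prlr in FT against FN (-0.121), Pgr in FT against MT (-0.264) and the difference for Prlr (-0.099). With limma-voom they turned for Esr1 in FT against FN (-0.216), for Pgr in FT against MT (-0.063) and for the difference for Esr1 (-0.202). The cause was not tested.

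Leaving out 1 library at a time, Pgr was between -1.715 and -1.012 in FN against MN, between 0.78 and 1.825 in FT against FN and between -0.27 and 0.726 in FT against MT. Esr1 was between -0.387 and 0.291 in MT against MN, between -1.017 and 1.014 in FT against FN, between -2.084 and -0.209 in FT against MT, between -1.586 and -0.619 in females against males and between -0.997 and 1.034 for the difference in the tumor effect, and Prlr between -0.164 and 0.183 in MT against MN. The Esr2 difference between the sexes was between -0.127 and 0.134 CPM.

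The number of genes with an adjusted p under 0.05, which was 0 in all 6 comparisons, was 54 (FN against MN), 3 (MT against MN), 1 (FT against MT) and 112 (females against males) over the 9 libraries. DESeq2 gave 20, 2, 246 and 622 in the same order, and limma-voom gave 800, 47 and 176 for the first, second and last. The groups compared alone gave 6 for MT against MN, and for females against males 10 libraries gave 9, no filter 23 and the replicate block 1. With the replicate block the log2 fold change of Pgr in females against males was -0.476, and the block changed no call of a receptor. Single libraries left out gave 0 to 1 gene in FN against MN, 0 to 755 in FT against MT and 0 to 1019 in females against males. DESeq2 size factors moved the median of all genes from 0.072 to 0.126 in FT against MT and from 0.09 to 0.119 in females against males, and TMM-scaled CPM moved a group mean of a receptor by 16.7% at most.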

Other observations

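The ligands of the prolactin and growth hormone receptors were read in few libraries. Prl, encoding prolactin, had 15 counts (1.85 CPM) in MT replicate 3, 12 counts (1.34 CPM) in MN replicate 2, 1 count in FT replicate 3 and 0 in the other 9 libraries. Gh, encoding growth hormone, had 382 counts (47.2 CPM) in MT replicate 3, 20 counts (4.35 CPM) in FT replicate 2 and 4 counts or fewer in each of the other 10. Both are hormones of the anterior pituitary, which lies close to the TG, and MT replicate 3 was the library with the highest value of each. In that library Prlr was at 4.08 CPM and Pgr at 5.56 CPM, within the range of the other male libraries for Prlr and the lowest of them for Pgr.

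Several genes of the pathway lists were far higher in FT replicate 2, the library with the fewest reads on genes, than in any other. Nr3c2, the mineralocorticoid receptor, was at 35.9 CPM there and at 1.30 to 9.73 CPM in the other 11 libraries. Stat5a, which carries the signal of the prolactin receptor, was at 43.8 CPM and at 1.95 to 9.60 CPM. Hsd17b11 was at 57.7 CPM, followed by 26.4 CPM in FN replicate 2 and 3.52 to 10.3 CPM in the other 10.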
